A study of Mus musculus with 4 samples.

Results

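The serpins, cystatins and stefins, cathepsins and calpains are 4 protein families that cut proteins or block the cutting, and 49 of the 10327 genes measured here belong to them. They were chosen by gene symbol: every symbol starting with Serpin, and the Cst, Stfa, Cts, Capn and Capns symbols that a number or letter completes. Of the 49, 30 belong to inhibitor families (24 serpins, 6 cystatins and stefins) and 19 to protease families, subunits included (10 cathepsins, 9 calpain genes). Below, inhibitors and proteases name these classes, whether or not each member inhibits or cuts. The GENCODE annotation of build GRCm38 lists 62 serpin, 14 cystatin and stefin, 18 cathepsin and 15 calpain symbols of these forms, and those outside the table are not analysed here.

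The libraries are ribosome profiling libraries, which sequence the mRNA stretches that ribosomes cover, from epidermal keratinocytes of newborn mice at postnatal day 0. The cKO libraries (n = 2) came from mice of genotype K14Cre, Mettl14F/F, in which a Cre recombinase under the keratin 14 promoter of basal keratinocytes removes both floxed copies of Mettl14. The Ctrl libraries (n = 2) came from mice of genotype K14Cre, Mettl14F/+, which carry the same Cre and keep 1 copy that is not floxed, so the comparison is of loss of both copies against loss of 1 in K14-expressing cells. All 4 lysates held cycloheximide, a drug that stalls elongating ribosomes. The labels number the libraries and do not say that they came from separate animals, so that p-values measure the spread between these libraries, which may be technical. Mettl14, the partner of Mettl3 in the enzyme that methylates adenosines of mRNA to N6-methyladenosine, had 5 and 4 reads in the cKO libraries, against 26 and 17 reads in the Ctrl libraries. Each cKO library was lower than either Ctrl library, the direction of the labels, and limma did not call the log2 difference of -1.83 ± 0.55 (SE, limma adjusted p = 0.122). Keratinocyte markers, all 8 of 8 listed, summed to 207392 and 194196 CPM in cKO, against 160476 and 142813 CPM in Ctrl, and 0 of 4 endothelial markers were listed. Krt1 and Krt10, keratins of the layers above the basal one, made up most of that sum, while the basal genes went the other way: Krt5 fell (-1.26), and Trp63 and Krt14 stood at -0.69 and -0.59 without a call.

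Serpins are bait: a flexible reactive centre loop is offered to a protease, and when the loop is cut the serpin changes shape and traps the enzyme. The clade B serpins, most of them working inside cells, are abundant in stratified epithelia such as epidermis, where they meet the kallikreins that shed dead cells and proteases released on injury. Cystatins and the smaller stefins plug the active site of papain-like cysteine proteases with a conserved loop. The cathepsins among those proteases, together with the aspartic cathepsin D and the serine carboxypeptidase cathepsin A, break down proteins in lysosomes, and in epidermis they take part in the terminal differentiation of keratinocytes. Calpains are cysteine proteases of the cytosol that calcium activates, and the classical ones need a small subunit.

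The differences between members show in a few short stretches of their coding sequence, read 5′ to 3′ from the GENCODE models on GRCm38. The 4 calpain stretches below are centred on the codon of the catalytic cysteine, in capitals, or on the codon aligned with it. They are shown because Capn6, the calpain gene with the largest difference between the genotypes, has a lysine codon there, as is known of this calpain.
Capn1: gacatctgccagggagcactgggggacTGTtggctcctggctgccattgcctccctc
Capn2: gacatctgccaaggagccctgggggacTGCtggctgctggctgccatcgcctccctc
Capn5: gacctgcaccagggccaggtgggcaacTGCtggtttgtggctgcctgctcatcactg
Capn6: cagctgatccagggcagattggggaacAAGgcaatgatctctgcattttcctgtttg
They lie at chr19:6013673-6014017 for Capn1 and chr1:182492836-182512228 for Capn2, each across an intron, at chr7:98151839-98151895 for Capn5 and at chrX:143810872-143810928 for Capn6, all on the minus strand. Codon 115 of Capn1, codon 105 of Capn2 and codon 81 of Capn5 code for cysteine, while codon 81 of Capn6 is AAG, which codes for lysine.

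The next set holds the part of the reactive centre loop of the 4 Serpinb3 genes, whose products are the mouse relatives of the human squamous cell carcinoma antigens. The loop is shown because it decides which protease a serpin can trap, and because the genes are close copies that share stretches of coding sequence. Capitals mark the bases that differ from Serpinb3a.
Serpinb3a: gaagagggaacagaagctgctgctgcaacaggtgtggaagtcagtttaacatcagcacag
Serpinb3b: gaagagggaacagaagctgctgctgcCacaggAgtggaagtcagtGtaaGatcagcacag
Serpinb3c: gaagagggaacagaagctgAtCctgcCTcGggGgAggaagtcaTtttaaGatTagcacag
Serpinb3d: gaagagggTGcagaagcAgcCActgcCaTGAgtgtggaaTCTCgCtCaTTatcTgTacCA
These 60 bases, all on the minus strand, lie at chr1:107046115-107046174 for Serpinb3a, chr1:107154468-107154527 for Serpinb3b, chr1:107271725-107271784 for Serpinb3c and chr1:107078292-107078351 for Serpinb3d. Serpinb3b differs from Serpinb3a at 4 of the bases, Serpinb3c at 10 and Serpinb3d at 21. Across the whole coding sequence Serpinb3a was 92.9% identical to Serpinb3b, 91.3% to Serpinb3c and 89.4% to Serpinb3d.

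The loops of 3 further clade B serpins show how far genes with large differences diverge from each other. Here capitals mark the codons for glutamate, glycine and threonine in the hinge, the stretch by which the cut loop inserts into the serpin.
Serpinb2: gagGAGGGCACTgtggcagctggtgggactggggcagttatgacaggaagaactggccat
Serpinb11: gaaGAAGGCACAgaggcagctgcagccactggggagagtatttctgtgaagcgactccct
Serpinb6a: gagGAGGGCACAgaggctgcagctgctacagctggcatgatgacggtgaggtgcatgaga
They lie on the plus strand at chr1:107524783-107524842 for Serpinb2 and chr1:107379852-107379911 for Serpinb11, and on the minus strand at chr13:33918140-33918199 for Serpinb6a.

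For the stefins and cystatins, the stretch shown surrounds the first conserved loop, which packs against the protease. Capitals mark the loop's glutamine, valine and glycine codons and the codons between them. The set is shown because Stfa1, Stfa2 and Stfa3 are neighbouring copies, and Stfa3 was far more abundant than Stfa1 and Stfa2.
Stfa1: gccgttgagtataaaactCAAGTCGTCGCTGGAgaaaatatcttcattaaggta
Stfa2: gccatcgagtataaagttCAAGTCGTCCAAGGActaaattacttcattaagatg
Stfa3: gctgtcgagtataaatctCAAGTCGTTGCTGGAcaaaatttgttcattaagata
Cst3: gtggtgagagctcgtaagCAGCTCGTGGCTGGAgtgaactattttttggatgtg
Cst6: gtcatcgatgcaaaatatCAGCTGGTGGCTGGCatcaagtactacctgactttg
Stfa1 was read on the plus strand at chr16:36280517-36280570, while the others were read on the minus strand and across an intron, at chr16:36404150-36405180 for Stfa2, chr16:36450732-36452201 for Stfa3, chr2:148872898-148875173 for Cst3 and chr19:5348490-5349115 for Cst6. Over the whole coding sequence Stfa2 and Stfa3 were 80.9% identical and Stfa1 and Stfa3 61.2%.

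Taken over all 49 genes, 5 rose and 2 fell in cKO. A gene is said to have risen or fallen when limma on log2(CPM + 1) called it at a Benjamini-Hochberg adjusted p under 0.05 over all 10327 genes, and CPM stands for reads of a gene per 1000000 reads of the library's listed genes. Of all genes in the table, 0.668% were called, 0.368% higher and 0.300% lower. Of the 7 called members 5 are inhibitors (4 rose, 1 fell, of 30) and 2 are calpain genes (1 rose, 1 fell, of 19 proteases and subunits). Without overlap between the groups, 16 members were higher in cKO and 11 lower, and the groups of the other 22 overlapped, while of all genes 11.1% were higher without overlap and 34.1% lower. An unadjusted p under 0.05 was seen for 14 of the 49 and for 14.3% of all genes. The median log2 difference, cKO minus Ctrl, was -0.063 over the inhibitors and -0.020 over the proteases, beside -0.24 over all genes. With a library left out it ran from 0.016 to 0.24 over the inhibitors and from -0.11 to 0.20 over the proteases, so neither median has a settled sign. Differences below are as the authors' CPM scale gives them; because the median gene stood at -0.24, a gene with a difference near 0 stood above the median gene.

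Together the 49 genes took 1.51% and 1.71% of the reads of the cKO libraries, against 1.37% and 1.48% in the Ctrl libraries. Inhibitor genes summed to 10892 and 12317 CPM in cKO, against 10040 and 10758 CPM in Ctrl. Protease genes summed to 4254 and 4769 CPM in cKO, against 3650 and 4002 CPM in Ctrl. Both cKO libraries were above both Ctrl libraries in each sum. The inhibitor sum was 2.56 and 2.58 times the protease sum in cKO, against 2.75 and 2.69 times in Ctrl. It includes the chaperone Serpinh1 and Serpinb5, which does not inhibit proteases. Serpinb5 alone had 2330 and 1951 CPM in cKO, against 2444 and 2030 CPM in Ctrl. The protease sum includes the small subunit Capns2, at 635 and 694 CPM in cKO, against 363 and 309 CPM in Ctrl. The ratio therefore does not compare active inhibitors with active proteases. Of the inhibitors, the serpins summed to 6850 and 7911 CPM in cKO against 5494 and 5640 CPM in Ctrl, and the cystatins and stefins to 4042 and 4406 CPM in cKO, against 4546 and 5119 CPM in Ctrl.

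**Figure D1:**
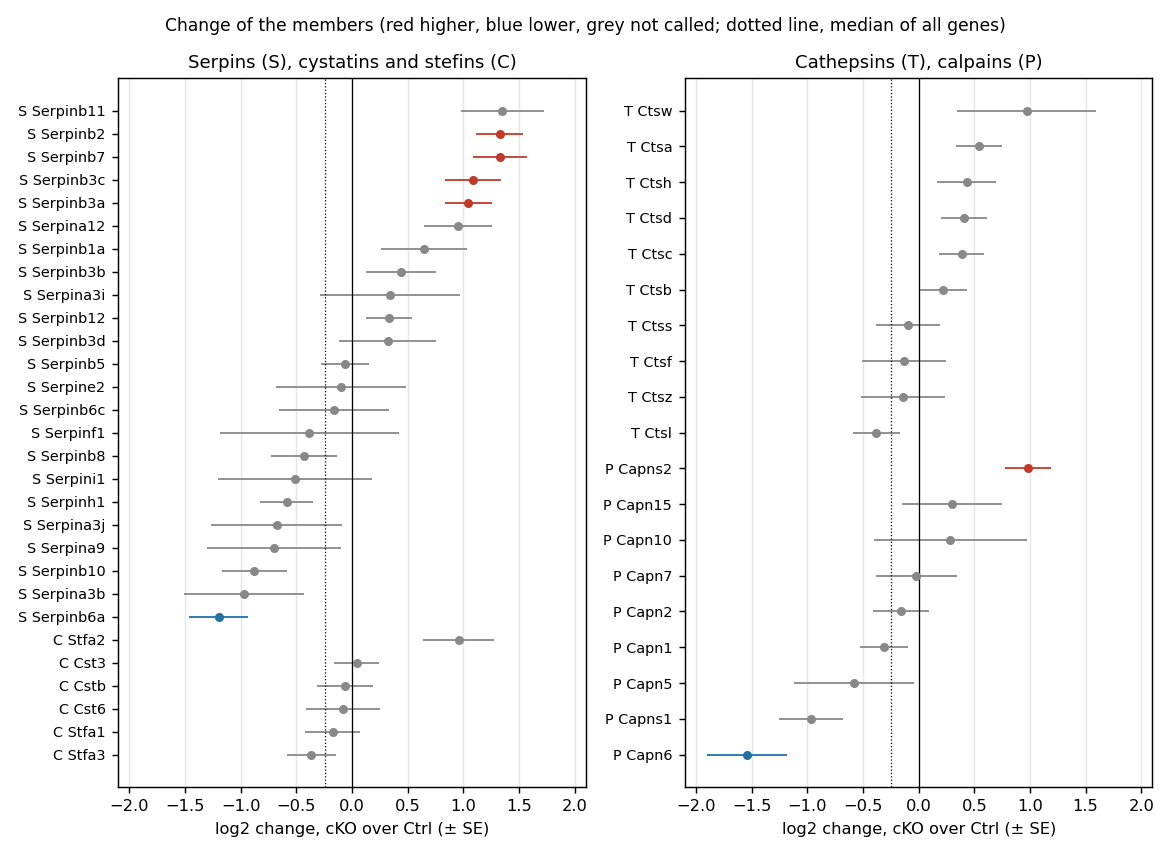
Log2 difference, cKO minus Ctrl, with its limma standard error for the genes reported here, inhibitors and proteases apart; red and blue points are the genes called higher and lower at an adjusted p under 0.05. The 7 called genes run from -1.54 for Capn6 to 1.33 for Serpinb2, and the dotted line marks the median of all genes, -0.24.

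The 4 inhibitor genes that rose were all clade B serpins of 1 cluster on chromosome 1. Its 11 measured genes lie within 749 kb (chr1:106861173-107610484), and the 4 log2 differences ran from 1.05 to 1.33. Serpinb2, plasminogen activator inhibitor type 2, which blocks urokinase and is found in the outer epidermal layers, had 1334 and 1648 CPM in the cKO libraries, against 669 and 519 CPM in the Ctrl libraries. The lower of the cKO libraries exceeded the higher of the Ctrl libraries, and the log2 difference, cKO minus Ctrl, was 1.33 ± 0.21 (SE, limma adjusted p = 0.00506). Serpinb2 lies at chr1:107511423-107535478, plus strand, and averaged 1491 ± 222 CPM in cKO and 594 ± 106 CPM in Ctrl (SD, n = 2 each).

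Serpinb7, whose loss in humans causes Nagashima-type palmoplantar keratosis, had 356 and 485 CPM in the cKO libraries, against 132 and 207 CPM in the Ctrl libraries. Its groups did not overlap either, and the log2 difference was 1.33 ± 0.24 (SE, limma adjusted p = 0.0151). The gene lies at chr1:107399655-107452689, plus strand, and no window of 30 bases of its coding sequence recurs in another gene, a search that covers neither shorter reads nor reads aligned with a mismatch.

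Serpinb3a, which in mouse traps both cysteine and serine proteases, had 479.6 and 544 CPM in the cKO libraries, against 249 and 245 CPM in the Ctrl libraries. The groups lay well apart, and the log2 difference was 1.05 ± 0.21 (SE, limma adjusted p = 0.0206). Serpinb3c, its close copy, had 234 and 334 CPM in the cKO libraries, against 155 and 111 CPM in the Ctrl libraries, again without overlap, and its log2 difference was 1.09 ± 0.25 (SE, limma adjusted p = 0.0393). The genes lie at chr1:107045587-107052303, minus strand, and at chr1:107271201-107278371, minus strand. Of the windows of 30 bases in their coding sequence, 42.6% for Serpinb3a and 30.3% for Serpinb3c also occur in another gene, so the split of reads between the 4 copies is uncertain. The other copies were less abundant per length, Serpinb3b at 64.4 CPM per kb in cKO and 46.3 CPM per kb in Ctrl and Serpinb3d at 25.0 CPM per kb in cKO and 20.0 CPM per kb in Ctrl, beside 441 CPM per kb in cKO and 213 CPM per kb in Ctrl for Serpinb3a. Neither was called, with log2 differences of 0.44 and 0.32.

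Serpinb11, whose human counterpart has lost the ability to inhibit, had 90.4 and 105 CPM in the cKO libraries, against 22.5 and 62.5 CPM in the Ctrl libraries. Its groups did not overlap, but the Ctrl libraries lay far apart, and the log2 difference of 1.35 ± 0.37 (SE, limma adjusted p = 0.0945) was not called. It was 0.63 without Ctrl 1 and 2.07 without Ctrl 2. Serpinb12, an inhibitor of trypsin-like proteases, had 985 and 1201 CPM in the cKO libraries, against 778 and 956 CPM in the Ctrl libraries. The cKO libraries were both higher by a narrow gap, with a log2 difference of 0.33 ± 0.21 (SE, limma adjusted p = 0.482).

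Serpinb5, or maspin, a clade B serpin that does not inhibit proteases and is known as a tumour suppressor of epithelia, was the most abundant serpin per length, at 1903 CPM per kb in cKO and 1989 CPM per kb in Ctrl. It had 2330 and 1951 CPM in the cKO libraries, against 2444 and 2030 CPM in the Ctrl libraries. The libraries numbered 1 were the higher in both genotypes, the groups overlapped, and the log2 difference was -0.063 ± 0.22 (SE, limma adjusted p = 0.922).

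At the far end of the cluster the direction was the other. Serpinb10, or bomapin, described in human blood-forming cells and annotated in mouse as a polymorphic pseudogene, had 68.3 and 70.5 CPM in the cKO libraries, against 171 and 96.1 CPM in the Ctrl libraries. Both cKO libraries were lower, with a log2 difference of -0.88 ± 0.29 (SE, limma adjusted p = 0.164) that was not called. Its exons overlap those of Serpinb2 on the same strand over 17.0% of its coding bases, so some of its reads cannot be told from those of Serpinb2, which moved the other way. Serpinb8, an inhibitor of furin, had a log2 difference of -0.43 ± 0.30 (SE, limma adjusted p = 0.532). The median over the 11 genes was 0.44. Of the 11, 7 had both cKO libraries above both Ctrl libraries, 2 had them below and 2 overlapped. Of all genes, 11.1% had them above and 34.1% below.

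**Figure D2:**
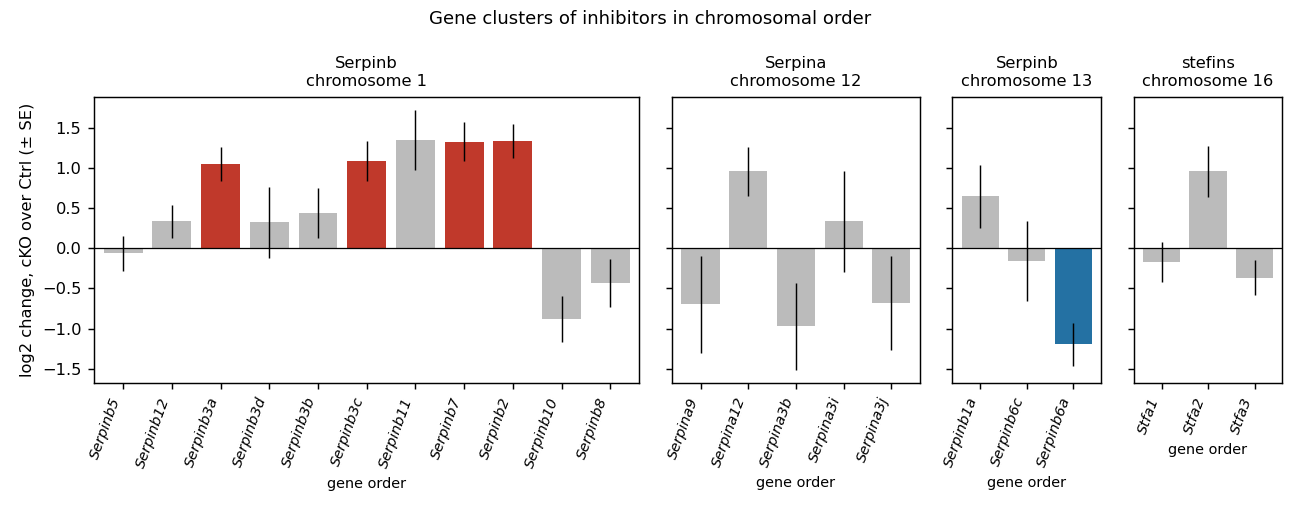
Log2 difference, cKO minus Ctrl, with its limma standard error for the genes of the serpin and stefin clusters in their order along the chromosome, with called genes in red (higher) and blue (lower). In the chromosome 1 cluster the 4 called genes lie between 1.05 and 1.33, Serpinb5 at the cluster's start stands at -0.063, and Serpinb10 next to Serpinb2 stands at -0.88.

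The promoters of the cluster were read because several of its genes differed in the same direction. Of 49 members, 40 had a promoter in the RefSeq table (GRCm38.p6; 250 bases before to 50 after a start site), with 47 windows. The letters TGANTCA, the core to which AP-1 factors bind and its own reverse complement, stood in 7 of the 11 chromosome 1 clade B genes and in 3 of the 29 other members with a promoter. Of 32851 windows over all genes, 7.81% held them, against 23.4% of the member windows. Of the 3 other motifs searched, all on both strands, TATAAA stood in 25.5% of member windows and 13.6% of all windows, GGGCGG in 34.0% of member windows and 35.7% of all windows, and CACCC in 63.8% of member windows and 57.5% of all windows. The motifs were chosen after the values were seen, a match is no evidence of binding, and TGANTCA did not follow the direction of the difference: Serpinb10, Serpinb8 and Serpinb5 hold it, while the windows of Serpinb3a and Serpinb3c, which rose, and of Serpinb3b and Serpinb3d do not. The 120 bases before the start site are shown, with the match in capitals, for the 4 genes of the cluster that hold it and whose cKO libraries were the higher.
Serpinb2: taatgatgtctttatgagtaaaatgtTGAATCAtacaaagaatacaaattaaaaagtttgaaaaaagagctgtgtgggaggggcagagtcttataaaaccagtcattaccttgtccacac
Serpinb7: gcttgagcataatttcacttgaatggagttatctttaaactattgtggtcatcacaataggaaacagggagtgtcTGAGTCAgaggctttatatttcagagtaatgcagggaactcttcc
Serpinb11: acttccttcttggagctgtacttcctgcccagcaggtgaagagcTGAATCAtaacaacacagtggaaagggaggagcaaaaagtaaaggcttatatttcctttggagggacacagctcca
Serpinb12: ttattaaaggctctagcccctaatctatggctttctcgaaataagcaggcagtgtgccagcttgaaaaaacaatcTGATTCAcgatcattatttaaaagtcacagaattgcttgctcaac
All 4 are on the plus strand and end at RefSeq start sites, which can differ from the GENCODE gene starts, at chr1:107511303-107511422 for Serpinb2, chr1:107422569-107422688 for Serpinb7, chr1:107362194-107362313 for Serpinb11 and chr1:106934329-106934448 for Serpinb12.

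Of the 3 clade B serpins on chromosome 13, Serpinb6a fell. Serpinb6a, an inhibitor of cathepsin G and thrombin, had 64.6 and 58.5 CPM in the cKO libraries, against 137 and 147 CPM in the Ctrl libraries. Each Ctrl library was above both cKO libraries, and the log2 difference was -1.20 ± 0.27 (SE, limma adjusted p = 0.0373). The gene lies at chr13:33917918-34002794, minus strand, and averaged 61.5 ± 4.28 CPM in cKO and 142 ± 7.28 CPM in Ctrl (SD, n = 2 each). Its exons overlap genes of the opposite strand over 4.43% of coding bases, and whether reads were counted by strand is not given in the sources used here. Serpinb1a, which blocks neutrophil elastase, had a log2 difference of 0.65 ± 0.39 (SE, limma adjusted p = 0.460), and Serpinb6c one of -0.16 ± 0.50 (SE, limma adjusted p = 0.911).

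The 5 clade A serpins on chromosome 12 showed a wide spread between libraries of a genotype. Serpina12, or vaspin, which inhibits kallikrein 7, had 483 and 920.3 CPM in the cKO libraries, against 225 and 524 CPM in the Ctrl libraries. The higher Ctrl library exceeded the lower cKO library, so the groups overlapped, and the log2 difference of 0.96 ± 0.31 (SE, limma adjusted p = 0.149) was not called. It was 0.35 without Ctrl 1 and 1.56 without Ctrl 2. Serpina3b, Serpina3i and Serpina3j, relatives of antichymotrypsin, and Serpina9, or centerin, had log2 differences of -0.97, 0.34, -0.68 and -0.70. None was called, and these 4 genes each had under 10 reads in at least 1 library.

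Library 2 exceeded library 1 by 1.5 times or more in both genotypes for 5 of the 49 genes: 4 of the 5 clade A serpins and Cst6. Of all genes, 6.30% did so. The ratio of library 2 to library 1 was 6.20 in cKO and 3.22 in Ctrl for Serpina9, 3.96 in cKO and 2.99 in Ctrl for Serpina3b, 3.46 in cKO and 3.53 in Ctrl for Serpina3j, 1.90 in cKO and 2.33 in Ctrl for Serpina12, and 2.28 in cKO and 2.27 in Ctrl for Cst6. Stfa2 had a ratio of 2.73 in cKO and 1.27 in Ctrl. The labels do not say what libraries of the same number share.

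**Figure D3:**
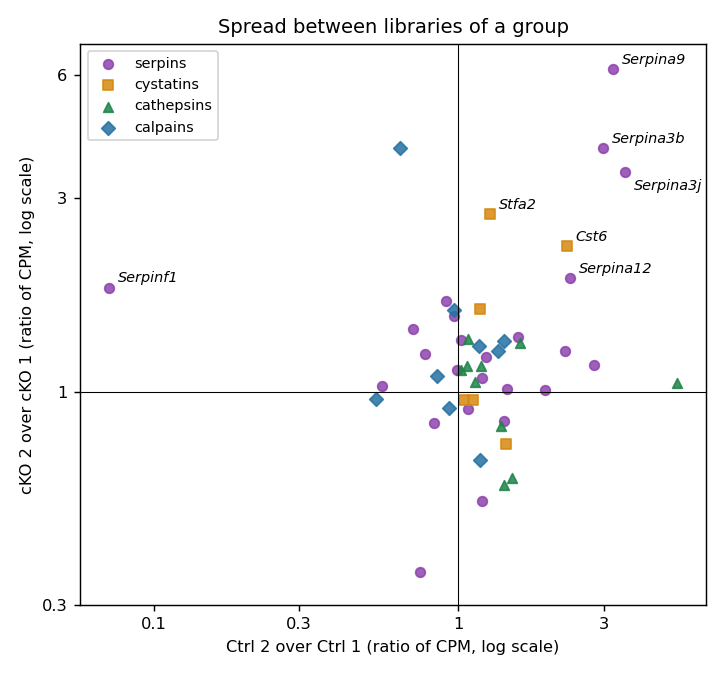
Ratio of library 2 to library 1 in cKO (vertical axis) against the same ratio in Ctrl (horizontal axis), both on log scales, for the 49 genes. Serpina9, Serpina3b, Serpina3j, Serpina12 and Cst6 lie in the upper right, at 1.5 or more on both axes.

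Of the 5 remaining serpins, Serpinh1 was the most abundant. Serpinh1, or HSP47, is no protease inhibitor but a chaperone that collagen needs in the endoplasmic reticulum, and it had 162 and 165 CPM in the cKO libraries, against 205 and 296 CPM in the Ctrl libraries. Both cKO libraries were lower, but the log2 difference of -0.59 ± 0.24 (SE, limma adjusted p = 0.251) was not called. Of 12 genes for collagens and collagen-modifying enzymes, its clients and partners, limma called 0, with 5 at an unadjusted p under 0.05. Among those 5 was P4hb, the most abundant of the 12, which was higher in cKO (0.50 ± 0.21, SE, limma adjusted p = 0.289). The other 11 differences were negative, and the median was -0.58. EdgeR with TMM called 1 of the 12 and DESeq2 0. Fibroblast markers, with 8 of 8 listed, shared the direction of Serpinh1 between the genotypes but not its order of libraries. They summed to 1636 and 1108 CPM in cKO, against 4008 and 2438 CPM in Ctrl. The Ctrl library with the higher marker sum had the lower Serpinh1 value. In cKO the marker sums lay apart while the Serpinh1 values were close. Of these markers Dcn, Sparc and Postn were called lower. Their part in the Serpinh1 difference was not tested, and in bulk libraries fewer cells of a type and less RNA per cell cannot be told apart.

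Serpinf1, or PEDF, an inhibitor of vessel growth, had 2 and 5 reads in cKO, against 21 and 1 reads in Ctrl, so its Ctrl libraries lay on both sides of the cKO libraries. At such depth a change of this gene was not detectable. Serpine2 and Serpini1 were as rare, with log2 differences of -0.097 and -0.51.

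**Figure D4:**
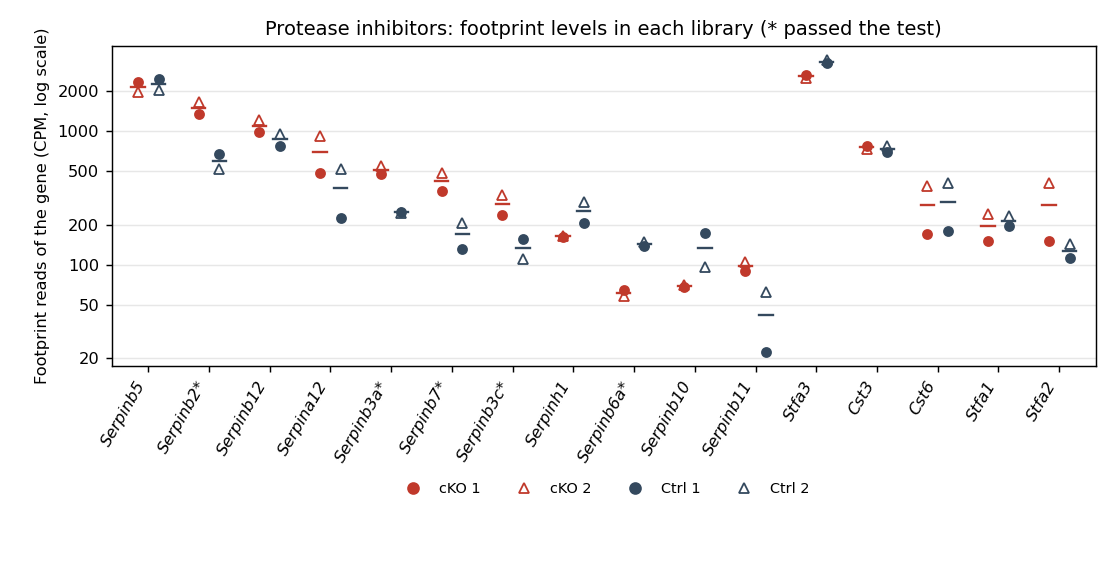
CPM in each library (points, log axis) with the mean of each genotype for the inhibitor genes the text describes, cKO left of Ctrl. Serpinb2, Serpinb7, Serpinb3a and Serpinb3c have both cKO points above both Ctrl points, Serpinb6a both below, and Serpinb5 overlaps.

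The 6 cystatins and stefins held the most abundant inhibitor of all and no called gene. Stfa3, a stefin A of the mouse, stood at 8295 CPM per kb in cKO and 10682 CPM per kb in Ctrl, the highest level per length among the 49 genes. It had 2623 and 2503 CPM in the cKO libraries, against 3231 and 3371 CPM in the Ctrl libraries, both cKO libraries below both Ctrl libraries, with a log2 difference of -0.36 ± 0.22 (SE, limma adjusted p = 0.455); relative to the median gene that is -0.12. Stfa2 had 149 and 408 CPM in the cKO libraries, against 112 and 143 CPM in the Ctrl libraries. The lower cKO library was close to the higher Ctrl library while cKO 2 was far above all others, and the log2 difference of 0.96 ± 0.32 (SE, limma adjusted p = 0.164) was not called. With a library left out it ran from 0.24, without cKO 2, to 1.68, without cKO 1.

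Stfa1 had 149 and 238 CPM in the cKO libraries, against 196 and 231 CPM in the Ctrl libraries, overlapping, with a log2 difference of -0.17 ± 0.25 (SE, limma adjusted p = 0.791). As with the Serpinb3 copies, 43.4% of windows of 30 coding bases in Stfa1 and 47.5% in Stfa2 occur in another gene, while 0% do in Stfa3. Of 8 neutrophil markers only 1, Cxcr2, was listed, and the other 7 are not analysed here.

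Cst6, cystatin E/M, whose loss in mice disturbs the cornified layer and whose targets include legumain and cathepsin L, had 169.7 and 387 CPM in the cKO libraries, against 180.0 and 409 CPM in the Ctrl libraries. The libraries numbered 2 were high and those numbered 1 low in both genotypes, and the log2 difference was -0.081 ± 0.33 (SE, limma adjusted p = 0.935). Cst3, cystatin C, the main secreted cystatin, had 775 and 739 CPM in the cKO libraries, against 695 and 777 CPM in the Ctrl libraries, overlapping, with a log2 difference of 0.042 ± 0.20 (SE, limma adjusted p = 0.941). Cstb, stefin B of the cytosol, stood at -0.062. Over the 6 genes 1 had an unadjusted p under 0.05, Stfa2, which edgeR with TMM called and DESeq2 did not.

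Among the proteases, none of the 10 cathepsins was called by limma with group as the only term, by edgeR or by DESeq2. An unadjusted p under 0.05 was seen for 1 with limma, 5 with edgeR and TMM, and 3 with DESeq2. Over all 10327 genes these counts were 1475, 1119 and 449. The 4 most abundant cathepsins by CPM were all higher on average in cKO, and 3 without overlap. Over all 10 cathepsins, 4 were higher in cKO without overlap, 1 was lower, and the groups of 5 overlapped. Of all genes, 11.1% were higher without overlap and 34.1% lower. Ctsa, the carboxypeptidase that also protects lysosomal galactosidase and neuraminidase, had 701 and 813 CPM in the cKO libraries, against 476 and 564 CPM in the Ctrl libraries. With limma it was the 1 cathepsin at an unadjusted p under 0.05, with a log2 difference of 0.54 ± 0.21 (SE, limma adjusted p = 0.224). Ctsd, the aspartic protease, had 549.7 and 636 CPM in the cKO libraries, against 431 and 461 CPM in the Ctrl libraries, both cKO libraries above both Ctrl libraries, and a log2 difference of 0.41 ± 0.20 (SE, limma adjusted p = 0.369). Of its coding bases 65.7% lie within a read-through gene of the same strand, so reads there cannot be assigned to it with certainty.

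Ctsc, or dipeptidyl peptidase I, whose loss in humans causes palmoplantar keratosis with gum disease, had 648 and 684 CPM in the cKO libraries, against 477 and 542 CPM in the Ctrl libraries. Its groups did not overlap, and the log2 difference was 0.39 ± 0.20 (SE, limma adjusted p = 0.387). Ctsb, a cysteine protease, had 483 and 652 CPM in the cKO libraries, against 465 and 498 CPM in the Ctrl libraries, where the lower cKO library lay between the Ctrl libraries, and a log2 difference of 0.22 ± 0.21 (SE, limma adjusted p = 0.673).

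The other 6 cathepsins ranged from -0.38 to 0.97. The lowest was Ctsl, cathepsin L, whose loss in mice disturbs the hair cycle and the epidermis, with 275 and 311 CPM in cKO, against 377 and 385 CPM in Ctrl; both cKO libraries were the lower, in a difference of -0.38 ± 0.21 (SE, limma adjusted p = 0.416). Ctss, which trims the invariant chain for antigen presentation, had 144 and 85.1 CPM in cKO, against 99.6 and 141 CPM in Ctrl. It was high in cKO 1 and Ctrl 2, as were macrophage and other myeloid markers, 8 of 9 listed, which summed to 788 and 438 CPM in cKO, against 499 and 796 CPM in Ctrl; their part in the Ctss values was not tested. Over the 10 cathepsins the median difference was 0.30, and 0.033 without Ctrl 1. It was 0.028 over 20 genes for other lysosomal enzymes and membrane proteins. Of these 20, limma, edgeR with TMM and DESeq2 each called 0, and 1 had an unadjusted p under 0.05 with limma. The most abundant of those were Psap, the saposin precursor, at -0.021, and Lamp2, a lysosomal membrane protein, at -0.028.

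Of the 9 calpain genes 1 rose and 1 fell. Both cKO libraries were above both Ctrl libraries for 1 and below for 5, beside 11.1% and 34.1% of all genes. The median difference of -0.16 was 0.048 with median centring. Capns2, a small subunit that can replace Capns1, rose, with 635 and 694 CPM in the cKO libraries, against 363 and 309 CPM in the Ctrl libraries. Both cKO libraries were well above both Ctrl libraries, the means were 664 ± 42.1 CPM in cKO and 336 ± 38.1 CPM in Ctrl (SD, n = 2 each), and the log2 difference was 0.98 ± 0.21 (SE, limma adjusted p = 0.0270). Capns2 lies at chr8:92901407-92902411, plus strand. It was the most abundant calpain gene per length, at 897 CPM per kb in cKO and 454 CPM per kb in Ctrl.

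Capns1, the common small subunit of calpains 1 and 2, had 51.7 and 65.2 CPM in the cKO libraries, against 98.5 and 133 CPM in the Ctrl libraries. Both cKO libraries were lower, but the log2 difference of -0.97 ± 0.29 (SE, limma adjusted p = 0.121) was not called. Genes on the opposite strand overlap 16.4% of its coding bases. The ratio of Capns2 to Capns1 was not tested as such.

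Capn6, the calpain without the catalytic cysteine shown above, fell, with 27.7 and 26.6 CPM in the cKO libraries, against 110.3 and 59.3 CPM in the Ctrl libraries. In reads it had 15 and 20 in cKO, against 103 and 37 in Ctrl; the cKO libraries were alike and the Ctrl libraries apart, with the higher level in Ctrl 1. The log2 difference was -1.54 ± 0.36 (SE, limma adjusted p = 0.0463). The gene lies at chrX:143802231-143827414, minus strand. Fibroblast markers, summed above, were also highest in Ctrl 1, and their part in the Capn6 difference was not tested.

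Capn1 and Capn2, the large subunits of the classical calpains, had log2 differences of -0.32 ± 0.22 (SE, limma adjusted p = 0.531) and -0.16 ± 0.25 (SE, limma adjusted p = 0.809). Capn1 had 295 and 383 CPM in the cKO libraries, against 388 and 452 CPM in the Ctrl libraries, and Capn2 had 118 and 108 CPM in the cKO libraries, against 131 and 122 CPM in the Ctrl libraries. In both genes the cKO libraries were the lower by a narrow gap, and relative to the median gene the differences were -0.070 for Capn1 and 0.085 for Capn2. The other 4, Capn5, Capn7, Capn10 and Capn15, had differences from -0.58 to 0.30 and were not called. Of 7 calpain partners, limma called 0, with 2 at an unadjusted p under 0.05, and edgeR with TMM and DESeq2 each called 0. Cast, calpastatin, the dedicated inhibitor of calpains, had 186 and 177 CPM in cKO, against 207 and 215 CPM in Ctrl, both cKO libraries lower, and a difference of -0.21 ± 0.22 (SE, limma adjusted p = 0.704).

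**Figure D5:**
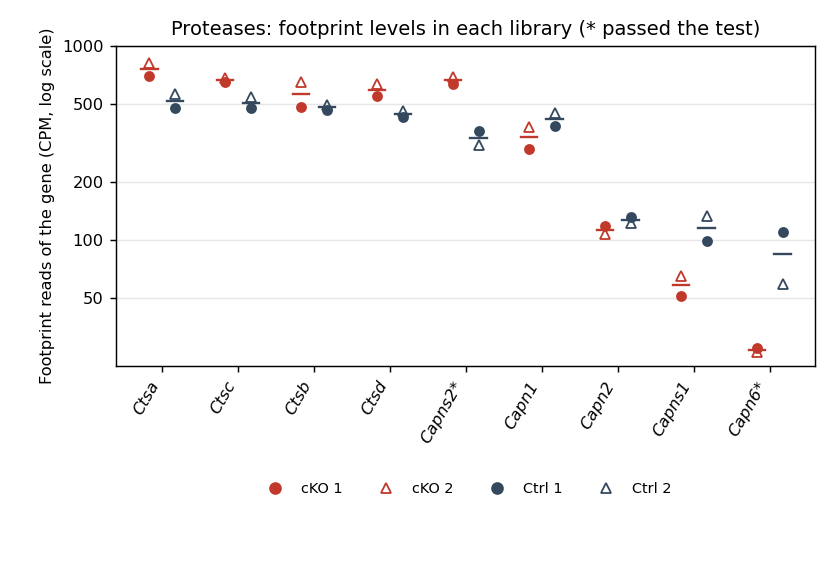
CPM in each library (points, log axis) with the mean of each genotype for the cathepsin and calpain genes the text describes, cKO left of Ctrl. Capns2 has both cKO points above both Ctrl points, Capn6 and Capns1 both below, and Ctsa, Ctsc and Ctsd both above.

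A further list held proteases that epidermal serpins and cystatins meet, cofactors and receptors (F3, Thbd, Plaur and Lrp1), and transglutaminases that cathepsins process. Of its 15 genes, 14 were listed and 2 rose. Klk5, a kallikrein that sheds dead cells, had 279 and 409.6 CPM in cKO, against 106 and 202 CPM in Ctrl, without overlap, and a difference of 1.20 ± 0.27 (SE, limma adjusted p = 0.0393). Tgm3, a transglutaminase that cross-links the cornified envelope, had 718 and 1053 CPM in cKO, against 389 and 364 CPM in Ctrl, without overlap, and a difference of 1.21 ± 0.22 (SE, limma adjusted p = 0.0151). Klk7, the kallikrein that Serpina12 inhibits, was not called. It had 688 and 1166 CPM in cKO, against 331 and 607 CPM in Ctrl, a difference of 1.00 ± 0.26 (SE, limma adjusted p = 0.0822). Of the 14, both cKO libraries were above both Ctrl libraries for 7 and below for 2, beside 11.1% and 34.1% of all genes. Differences were positive for 8 and negative for 6, with a median of 0.55. EdgeR with TMM and DESeq2 each called 5 of the 14, beside 1.70% and 4.80% of genes given an adjusted p. Markers of keratinocyte layers moved as well: of 9 differentiation genes, Ivl (involucrin) and Tgm3 rose and Krt5, the basal keratin, fell (-1.26). The median of these 9 genes was 0.61, and edgeR with TMM called 5 of them and DESeq2 6. Their part in the serpin differences was not tested.

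GGACT, the commonest form of the sequence that the Mettl3 and Mettl14 complex methylates, was counted in the coding sequences. The 49 genes had a median of 0.859 per kb of coding sequence, and the 10322 genes with a coding sequence had 1.07 (lower quartile 0.457, upper quartile 1.73). Among the called members, those that rose had 1.61 per kb (Serpinb2), 1.75 (Serpinb7), 0.861 (Serpinb3a), 0 (Serpinb3c) and 0 (Capns2), and those that fell had 0.835 (Serpinb6a) and 2.60 (Capn6). The letters alone do not say whether a site is methylated.

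Calls and differences moved when 1 library was left out, in fits where the lone library of a genotype is assumed to vary like the other genotype. Without cKO 1 or without cKO 2, limma called no gene of the whole table, with smallest adjusted p of 0.532 and 0.552 and with 940 and 928 genes at an unadjusted p under 0.05. Without Ctrl 1, Serpinb2, Serpinb3a, Serpinb3c and Capns2 kept their call, while Serpinb7 (1.00, limma adjusted p = 0.0583), Serpinb6a (-1.25, 0.0876) and Capn6 (-1.10, 0.440) lost it. Without Ctrl 2, Serpinb2, Serpinb7, Serpinb3a and Capn6 kept it, while Serpinb3c (0.84, limma adjusted p = 0.163), Capns2 (0.87, 0.0881) and Serpinb6a (-1.14, 0.116) lost it, and Serpinb11, Serpina12, Stfa2 and Serpinb10 were called. Of all genes, 0.620% were called without Ctrl 1 and 1.35% without Ctrl 2. With every library centred on its median gene, Serpinb6a (-0.99, limma adjusted p = 0.0795) and Capn6 (-1.33, 0.0863) were no longer called, and the 5 genes that rose were joined by Serpinb11, where 1.09% of all genes were called. With a filter at 10 CPM, which left 8301 genes with 0.277% called, Serpinb2, Serpinb3a and Serpinb7 kept their call. On recovered reads, edgeR with TMM called 9 members and 1.70% of all genes, adding Serpinb11, Serpina12 and Stfa2 and losing Serpinb6a (adjusted p = 0.0780), while edgeR with library totals called the same 7 members and 1.14% of all genes. DESeq2 gave an adjusted p for 1918 genes, called 4.80% of them, and called the 5 members that rose; it did not call Serpinb6a (adjusted p = 0.159) and gave no adjusted p for Capn6.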

How the data were processed

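Per the submitters' processing notes, fastp, HISAT2 and HTSeq were used with build GRCm38. Not given in the sources used here are versions, the strand and feature settings of the counting, and what was done with reads of several genes. The deposited table holds CPM values that the authors scaled to 1000000 over its 10327 genes in each library. The columns named WT were taken as Ctrl, the only other group in the labels. Every value (100%, tolerance 1e-06 reads) was a whole multiple of 1 read, so reads were recovered: 542074 and 751948 in the cKO libraries, and 933574 and 624167 in the Ctrl libraries. A single read was worth 1.84 and 1.33 CPM in cKO, and 1.07 and 1.60 CPM in Ctrl. The column totals hold the listed genes alone, and 11 of the 49 members had under 10 reads in at least 1 library.

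The main test was limma 3.58.1 (R 4.3.3), run on log2(CPM + 1) with its trend option, with group as the only term, over genes that reached 1 CPM in 2 or more libraries, a filter that removed 0 genes. This scale understates the change of low genes. The Benjamini-Hochberg adjustment ran over the whole table, and calls were made below an adjusted p of 0.05. Exact permutation tests were not used, since 2 against 2 libraries cannot give a two-sided p below 0.333. The alternatives were other pseudocounts, a filter at 10 CPM, median centring, a replicate block, leaving out each library, and count tests on the recovered reads with edgeR 4.0.16, with TMM or with library totals, and DESeq2 1.42.0. The limma fit was also run on simulated counts with known changes, and the outcome is not reported here.

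Genes were matched to the GENCODE annotation of GRCm38 by identifier (10327 of 10327). Shared sequence was counted as the share of windows of 30 coding bases that occur in any annotated transcript of another gene, pseudogenes included. The members and lists were chosen with earlier results of these data known. Described in full were members called, members at an unadjusted p under 0.05 whose groups did not overlap, and the 4 most abundant members of each family, 25 in all; others are given by ranges and counts or as low or neighbouring genes chosen after their values were seen. Values of 1 member and 1 loop sequence are not reported here, and that member is kept in all counts and sums.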

Additional observations from a re-analysis of the deposited data

How the results depend on the processing

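Over the whole table limma called 69 genes, and 23 with a filter at 10 CPM, 113 with median centring, 839 (8.12%) with a replicate block, and from 0 to 139 when each library was left out. On recovered reads edgeR called 176 genes with TMM and 118 with library totals, and DESeq2 called 92. Among the inhibitors, with 5 called, the count was 3 with the 10 CPM filter, 10 with the replicate block and 0 to 7 with a library left out. Among the proteases, with 2 called, it was 0 with the filter, 1 with median centring, 1 with DESeq2, 4 with the block and 0 to 1 with a library left out. Fewer genes were tested under the filter and fewer samples with a library left out; the cause of the other shifts was not tested. Equal replicate numbers were not taken to pair the libraries, since the labels do not say what a number marks and there are only 2 pairs; the correlation of their deviations from the group means was 0.195, and 0.397 over the 5164 genes at or above the median CPM. Under the block Ctsa, Capns1, Serpinh1, Serpina12, Serpinb10, Serpinb11 and Stfa2 were called as well. Differences near 0 changed sign. With median centring, edgeR with TMM and DESeq2, Capn2 was at 0.048, 0.085 and 0.073, Cst6 at 0.13, 0.22 and 0.18, Serpinb5 at 0.15, 0.18 and 0.17, and Stfa1 at 0.036, 0.13 and 0.11. With a library left out, Cst3 ran from -0.038 to 0.12, Cst6 from -0.67 to 0.51, Serpinb5 from -0.20 to 0.071 and Stfa1 from -0.51 to 0.16. Of all values of the 25 described members under the alternatives, 261 kept direction and call, 18 changed sign, 15 gained a call and 28 lost it. TMM moved the median of all genes to 0.0018, from -0.24.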

Other observations

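The 24 members outside the rule for description held no gene called by limma, edgeR or DESeq2. In the main limma fit 0 of them had an unadjusted p under 0.05. Without overlap, 5 of them were higher in cKO and 3 lower, beside 11.1% and 34.1% of all genes. In the other 16 the groups overlapped.

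Among markers of other cells, the libraries of a genotype were at times far apart. Red blood cell markers, 5 of 5 listed, summed to 526 and 98.4 CPM in cKO, against 120 and 80.1 CPM in Ctrl, with the high value in cKO 1. Col1a1, the main collagen gene of fibroblasts, had 40.6 and 35.9 CPM in cKO, against 397 and 25.6 CPM in Ctrl, so that Ctrl 1 alone was high. Serpinf1 followed the same order of libraries within Ctrl, with 21 reads in Ctrl 1 and 1 read in Ctrl 2. The part of such cells in the members' values was not tested.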
